A study of Mus musculus with 56 samples.

Results

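Mammary tumors that arose in irradiated mice heterozygous for Tgfb1 were compared with mammary tumors that arose in irradiated wild-type mice. The sample titles chose the members, 18 tumors of heterozygote hosts and 23 of wild-type hosts, 41 of the 56 tumors of the series, with 1 array each. All the tumors grew from non-irradiated p53-null mammary fragments, placed in inguinal fat pads of female BALB/c hosts that had been cleared of their own epithelium at 3 weeks of age. Hosts had been irradiated 3 days before transplantation, at a dose that the labels do not give. The other tumors came from sham-irradiated hosts, 6 heterozygote and 9 wild type, and are used here only as a second comparison of the same genotypes. The labels place the genotype in the host, so a heterozygote host keeps an intact copy of Tgfb1 and the Tgfb1 genotype of the fragment itself is not given. Whether some tumors shared a host is not given either. The tests treat each tumor as independent and set differences against the spread between tumors. If hosts were shared, the p-values may be too small for a difference between hosts.

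Tgfb1 encodes transforming growth factor beta 1, a cytokine that cells secrete in a latent complex, stored in the extracellular matrix until it is activated by integrins, proteases or radiation. The active ligand binds paired type I and type II receptors, which phosphorylate SMAD2 and SMAD3. In the mammary gland it restrains epithelial growth and shapes the stroma and the immune cells around a tumor.

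Expression was measured as log2 values per probe set on Affymetrix mouse arrays. Array medians of the deposited values ran from 5.57 to 5.71 in heterozygote hosts and from 5.92 to 6.00 in wild-type hosts, so the genotypes appear to have been normalized in separate runs, which no source used here states. The 41 arrays were therefore quantile normalized together, and each gene was represented by its brightest probe set. A gene-wise offset that this does not remove cannot be told apart from host genotype. Of 18194 genes, 12207 passed the filter on dim signal, and their median log2 difference, heterozygote minus wild type, was 0.02. Without the common scale that median was -0.22, and with each array centred on its median it was 0.11. The 18S ribosomal RNA control averaged 12.16 ± 0.69 (SD, n = 18) in heterozygote hosts and 12.69 ± 0.91 (SD, n = 23) in wild-type hosts (permutation test, two-sided, p = 0.0431). Low values of the 18S control (under 11 as deposited) came from Het_irradiated replicates 4 and 29 and WT_irradiated replicates 57 and 59. The epithelial junction genes of the labelled tissue had mean list levels from 7.87 to 10.99 (median 10.48) in heterozygote hosts and from 5.61 to 10.79 (median 10.43) in wild-type hosts, so in at least 1 wild-type tumor they lay below the overall median of 5.81.

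Tgfb1 itself lay at the same range of levels in tumors of irradiated hosts of both genotypes. Its values ran from 7.97 to 9.74 with a median of 8.56 in heterozygote hosts, and from 7.78 to 9.97 with a median of 8.58 in wild-type hosts. The groups overlapped almost completely, and 8 of 18 tumors of heterozygote hosts lay above the wild-type median. The log2 difference was -0.05 (SE 0.13, 95% interval -0.32 to 0.22, limma adjusted p = 0.929). Leaving out WT_irradiated replicate 57 gave 0.011 and leaving out Het_irradiated replicate 4 gave -0.12. A dimmer Tgfb1 probe set, which did not pass the filter, had a difference of 0.09. In sham-irradiated hosts the difference was -0.81 (limma unadjusted p = 0.0115, adjusted p = 0.371), and -0.54 without WT_sham replicate 46. The contrast between irradiated and sham-irradiated hosts had a limma unadjusted p of 0.0397 (adjusted p = 0.9999). Whether the probes lie in the part of the gene that the targeted allele lacks is not given, so these values do not check the genotype labels.

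Host genotype was associated with different levels of 229 of the 12207 genes, 1.88% (limma, Benjamini-Hochberg adjusted p under 0.05). Of these, 97 (0.795%) were higher and 132 (1.08%) lower in heterozygote hosts, and 1449 genes (11.9%) had an unadjusted p under 0.05. The called genes were mostly dim. The 3052 genes with the lowest mean level, 4.01 to 7.15, held 176 of the calls (5.77%), and the 3052 brightest held 13 (0.426%). Called genes also varied little, with a median SD within groups of 0.22 against 0.39 over all genes tested, and their median absolute difference was 0.37. Among the 12207 genes 5 (0.041%) had groups that did not overlap, namely Slc51b, Clec2h, Spaca4, Htr3a and Emx1. Of these Slc51b and Clec2h passed the filter through heterozygote hosts alone, and Htr3a through wild-type hosts alone. Their separation is therefore tied to how they entered. Genes that fail the filter were not counted for overlap. The values as deposited gave 4108 calls (33.5%), 17 higher (0.139%) and 4091 lower (33.3%), so the direction of most small differences depends on the scaling. The filter asked for 6 or more of the 41 arrays above 5.81, the median over all values, whatever their group, so a dim gene could enter through the group where it was high and then had to differ. That was so for 44 genes with no array of the other group above 5.81, of which 37 were called, 10 of them higher and 27 lower. With a filter on the mean over the 41 arrays, added after the data were seen, 125 genes were called, 59 higher and 66 lower. Without any filter 2335 of 18194 genes were called (12.8%), among them 1825 of the 5987 genes (30.5%) that fail the filter.

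**Figure D1:**
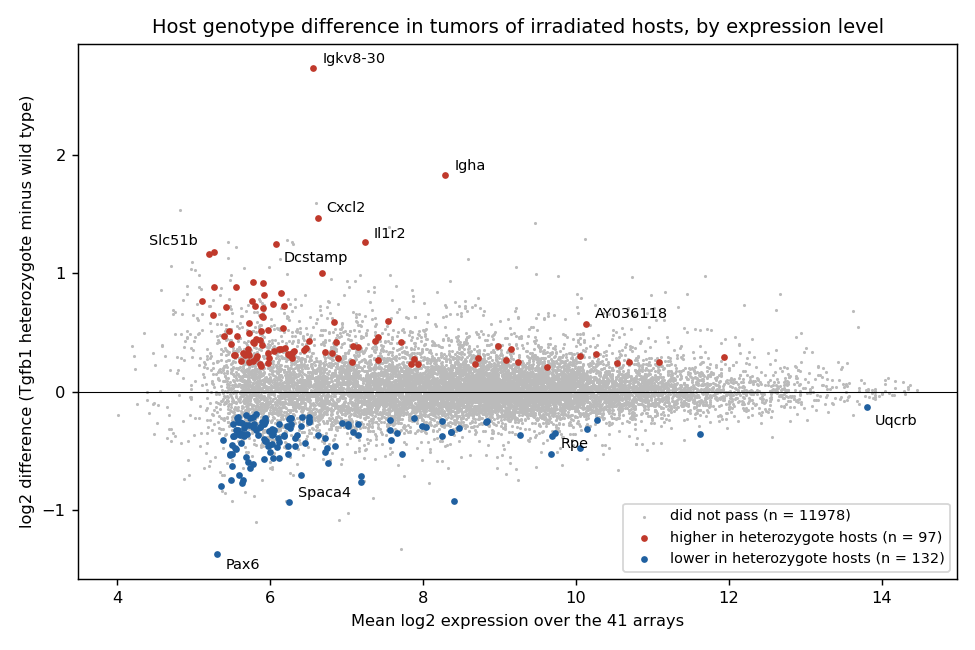
Mean log2 expression over the 41 arrays (horizontal axis) and log2 difference, heterozygote minus wild-type irradiated hosts (vertical axis), for 12207 genes, 1 point each; red points are the 97 genes higher and blue points the 132 genes lower in heterozygote hosts, and grey points did not pass. Most coloured points lie at mean levels under 7.15, while Igkv8-30, Igha and Cxcl2 stand highest.

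The genes with the lowest p were dim, and Slc51b had the lowest. Neither it nor Clec2h had a wild-type array above the filter level, so both passed it through heterozygote hosts alone, and their p-values here come from the fit of all 18194 genes without a filter. Slc51b encodes the beta subunit of a transporter that exports bile acids and steroids across the basolateral membrane, and lies on chromosome 9. Its level ran from 5.65 to 6.19 with a median of 5.95 in heterozygote hosts, and from 4.30 to 5.05 with a median of 4.77 in wild-type hosts. The groups did not overlap. Slc51b was 1.18 higher in heterozygote hosts (SE 0.06, 2.27-fold, limma adjusted p = 3.64e-19 without a filter). Clec2h on chromosome 6, a C-type lectin-related membrane protein, ran from 5.59 to 6.04 (median 5.71) in heterozygote hosts, against 4.58 to 5.15 (median 4.87) in wild-type hosts. It also separated the groups fully, with a log2 difference of 0.89 (SE 0.05, limma adjusted p = 1.9e-17 without a filter).

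The other higher genes with the lowest p differed by less, and Rtn4rl1, Gpr135 and Myo7b among them also passed the filter through heterozygote hosts alone. Rtn4rl1, a relative of the Nogo receptor, differed by 0.49, Sema6b, a semaphorin of axon guidance, by 0.32 and Ggt5, a gamma-glutamyltransferase that acts on leukotriene C4, by 0.46 (limma adjusted p = 1.68e-07 without a filter, 4.57e-05 and 5.28e-05). The other Ggt5 probe set that passed the filter differed by 0.12 and was not called. Gpr135, an orphan receptor, differed by 0.52, Hs3st2, a heparan sulfate sulfotransferase, by 0.43 and Myo7b, a brush border myosin, by 0.32 (limma adjusted p = 5.14e-06 without a filter, 9.54e-05, and 5.07e-06 without a filter). The predicted gene 4930422I22Rik, Hdgfl1 and Efcc1 complete the 12 with Igkv8-30, at 0.36, 0.33 and 0.36. In 17 or 18 of 18 tumors of heterozygote hosts each of these genes lay above its wild-type median. On the values as deposited Rtn4rl1, 4930422I22Rik, Hdgfl1, Sema6b, Efcc1 and Myo7b did not pass, and Myo7b had the opposite sign (-0.01).

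Among genes that fell, Spaca4, which encodes a sperm acrosomal membrane protein, had the lowest p. Its values were 5.45 to 6.04 (median 5.73) in heterozygote hosts and 6.21 to 6.96 (median 6.69) in wild-type hosts. All 18 tumors of heterozygote hosts lay below all 23 of wild-type hosts, with a log2 difference of -0.94 (SE 0.06, limma adjusted p = 3.53e-15). Htr3a, a subunit of the serotonin-gated ion channel, ran from 4.97 to 5.51 (median 5.18) in heterozygote hosts, against 5.56 to 6.24 (median 5.90) in wild-type hosts. Its log2 difference was -0.71 (SE 0.06, limma adjusted p = 4.49e-13 without a filter). Hamp2, a relative of the iron hormone hepcidin, lay between 4.85 and 5.67 (median 5.22) in heterozygote hosts and between 5.64 and 6.28 (median 5.96) in wild-type hosts. These ranges overlapped at their edge, and the difference was -0.78 (SE 0.06, limma adjusted p = 1.65e-12 without a filter). A dimmer Hamp2 probe set, which did not pass the filter, had a difference of -0.16. Neither Htr3a nor Hamp2 had a heterozygote array above the filter level, so both passed it through wild-type hosts alone.

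Another 9 lower genes complete the 12. Emx1, a forebrain homeobox gene, differed by -0.46, Vmn1r44, a vomeronasal receptor, by -0.56 and Tas1r2, a sweet taste receptor subunit, by -0.75. Sfrp5, a secreted Wnt antagonist, differed by -0.55, Plk5, a polo-like kinase, by -0.43 and Sftpb, surfactant protein B of the lung, by -0.53. Tigd3, 4921525O09Rik and Fam124a differed by -0.57, -0.63 and -0.45. Of these Tas1r2, Sfrp5, 4921525O09Rik and Fam124a passed the filter through wild-type hosts alone. Emx1, which had arrays of both groups above the filter level, had a limma adjusted p of 3.19e-10, and Fam124a had 8.25e-09 without a filter. In all, 0 of 18 tumors of heterozygote hosts lay above the wild-type median for any of these 9 genes. All of them had group means between 5.06 and 6.47, near the median of 5.81 over all values of the arrays.

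**Figure D2:**
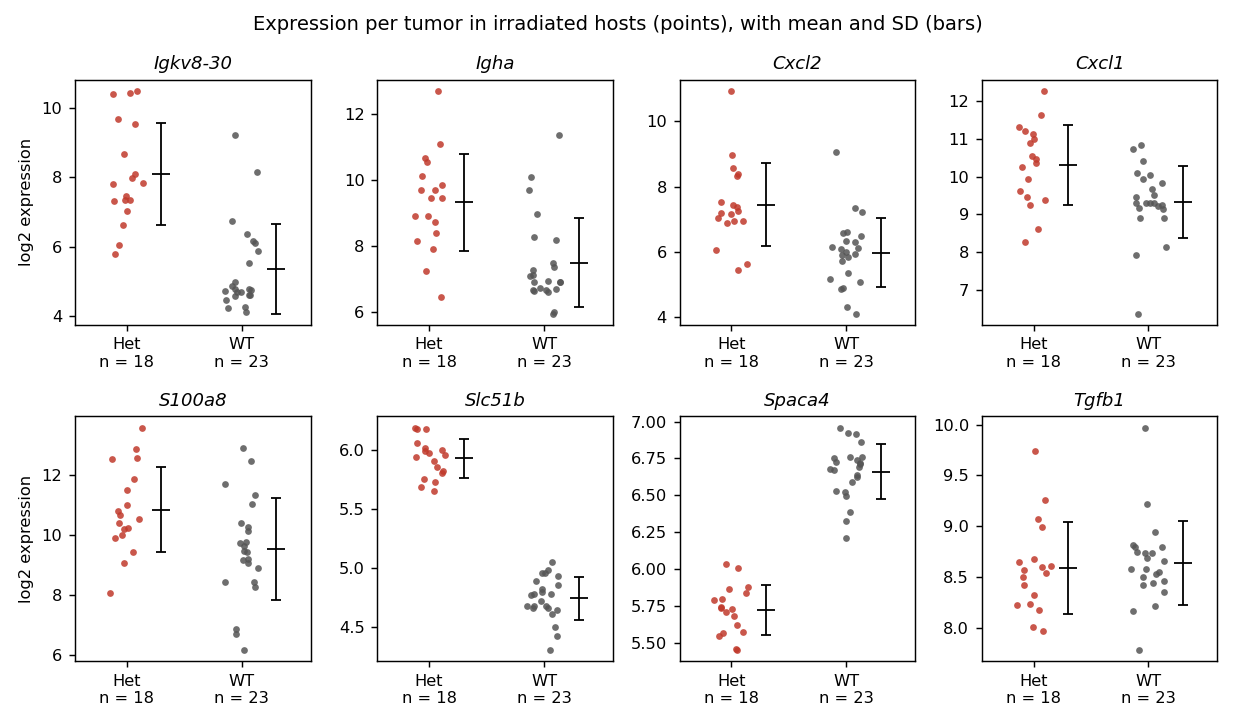
Log2 expression (vertical axis) of 8 genes in each tumor of irradiated heterozygote hosts (Het, red, left) and irradiated wild-type hosts (WT, grey, right), with points spread sideways for legibility and bars for mean and SD. Slc51b and Spaca4 separate the groups, Igkv8-30, Igha, Cxcl2, Cxcl1 and S100a8 overlap with higher means in heterozygote hosts, and Tgfb1 overlaps throughout.

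The genotype difference in sham-irradiated hosts had the same sign for most called genes. Those 15 arrays share no tumor with the irradiated hosts, but their deposited medians split by genotype in the same way, from 5.6 to 5.71 in heterozygotes and from 5.95 to 5.98 in wild types, so an offset between the genotypes' values could recur in them. Of the 229 genes, 215 (93.9%) had the same sign there, compared with 57.7% of all genes tested, and 166 (72.5%) had a sham difference of the same sign that was 50% or more as large, compared with 46.9% of all genes tested. The sham comparison called 44 of 12421 genes (0.354%), of which 24 (0.193%) were higher and 20 (0.161%) lower in heterozygotes, and 33 of these were among the 229. Slc51b averaged 5.84 ± 0.17 (SD, n = 6) in the heterozygotes and 4.76 ± 0.11 (SD, n = 9) in the wild types among these hosts, a difference of 1.08. Spaca4 averaged 5.74 ± 0.16 (SD, n = 6) in the heterozygotes and 6.48 ± 0.10 (SD, n = 9) in the wild types, a difference of -0.74, and Clec2h differed by 0.89.

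A test of whether the genotype difference itself depended on irradiation called 0 of 12421 genes with limma, with a lowest adjusted p of 0.9999. At an unadjusted p under 0.05 there were 586 genes (4.72%). A gene-wise offset between the genotypes' values would cancel in this contrast only if it were equal in irradiated and sham-irradiated hosts, which was not tested. Among the 229 genes 20 had an unadjusted p under 0.05, including Htr3a, with a difference of -0.71 in irradiated and -0.31 in sham-irradiated hosts (unadjusted p of the contrast 0.00385, limma adjusted p = 0.9999). Synm, an intermediate filament protein named after its values were seen, had 0.93 in irradiated and -0.80 in sham-irradiated hosts.

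**Figure D3:**
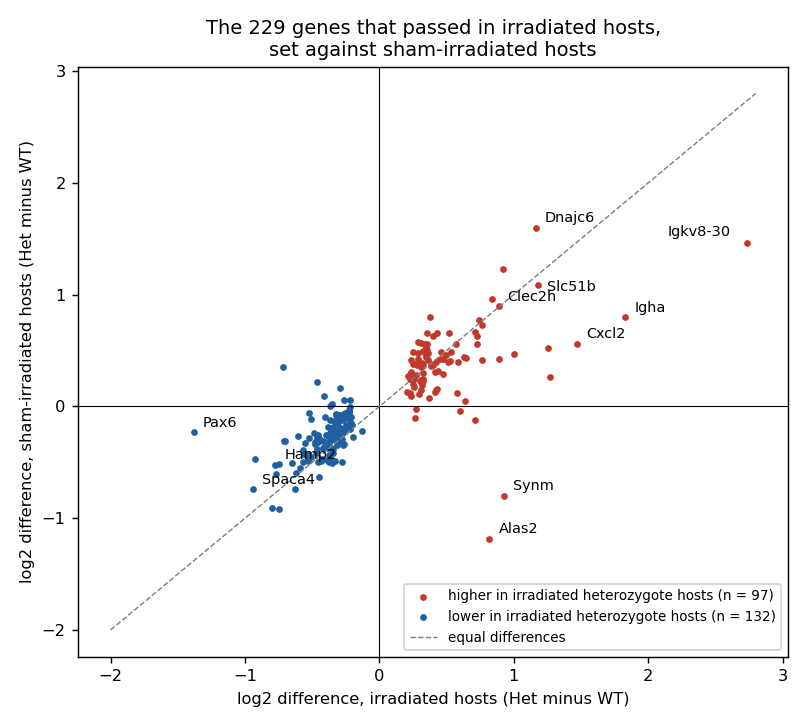
Log2 difference in irradiated hosts (horizontal axis) and in sham-irradiated hosts (vertical axis), heterozygote minus wild type, for the 229 genes that passed in irradiated hosts; the dashed line marks equal differences. Of these genes 215 had the same sign in both, and Alas2 and Synm lie in the opposite quadrant.

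The antibody genes Igkv8-30 and Igha, 2 of the 8 members tested of the list of B cell and antibody genes, were higher in tumors of irradiated heterozygote hosts. Igkv8-30, an immunoglobulin kappa variable segment on chromosome 6, ran from 5.80 to 10.48 with a median of 7.82 in heterozygote hosts. In wild-type hosts it ran from 4.11 to 9.22 with a median of 4.79. All 18 tumors of heterozygote hosts lay above the wild-type median, although the ranges overlapped. The means were 8.10 ± 1.46 (SD, n = 18) in heterozygote hosts and 5.37 ± 1.29 (SD, n = 23) in wild-type hosts, a log2 difference of 2.74 (SE 0.42, 6.66-fold, limma adjusted p = 2.82e-05), the largest of the 229.

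Igha, the constant region of the IgA heavy chain on chromosome 12, ran from 6.45 to 12.69 (median 9.45) in heterozygote hosts and from 5.95 to 11.34 (median 6.94) in wild-type hosts. It rose by 1.83 (SE 0.43, 3.55-fold, limma adjusted p = 0.0108), with 17 of 18 tumors of heterozygote hosts above the wild-type median. The other Igha probe sets gave 1.58 and 2.09. After adjustment for the 18S control the call of Igha ended (limma adjusted p = 0.068). Jchain, which joins IgA and IgM into polymers, ran from 4.54 to 10.21 (median 7.33) in heterozygote hosts, against 4.12 to 10.82 (median 5.50) in wild-type hosts. Its difference of 1.59 did not pass (SE 0.46, limma adjusted p = 0.0584).

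Igkv8-30, Igha and Jchain varied together from tumor to tumor. Pearson's r between Igkv8-30 and Jchain was 0.924 over the 18 tumors of heterozygote hosts and 0.968 over the 23 of wild-type hosts, and between Igha and Jchain it was 0.942 in heterozygote and 0.932 in wild-type hosts, as a description of arrays that share RNA quality and cell makeup. Bulk RNA does not tell more cells of a type from more RNA per cell. In the list 2 of 8 members rose and 0 fell, beside 0.795% and 1.08% of all genes tested. Those 2, Igha and Igkv8-30, had r of 0.871 in heterozygote and 0.921 in wild-type hosts, so their calls are not independent. The list had a median difference of 0.18 (0.02 over all genes tested), or -0.04 on the values as deposited. The median was 0.10 without Het_irradiated replicate 42 and 0.28 without WT_irradiated replicate 24.

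Members that mark the cell lineage rather than the antibody product had smaller values. Cd22, a B cell surface receptor, differed by 0.08, Mzb1, a chaperone of plasma and marginal zone B cells, by -0.14, Derl3, of secretory protein quality control, by 0.13 and Xbp1, the plasma cell transcription factor, by 0.03. Ighm, the IgM heavy chain, differed by 0.24 at its brightest probe set, while its other probe sets that passed the filter ranged from -0.01 to 1.57. Probe sets of immunoglobulin genes can share sequence with related segments, so the individual segment is uncertain. In sham-irradiated hosts Igkv8-30 averaged 7.35 ± 1.79 (SD, n = 6) in heterozygotes and 5.89 ± 1.17 (SD, n = 9) in wild types, and Igha averaged 8.58 ± 2.55 in heterozygotes and 7.78 ± 1.23 in wild types. Neither passed there (limma adjusted p = 0.58 and 0.869), nor was the difference from irradiated hosts detected (limma unadjusted p = 0.131 and 0.267).

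Cxcl2, a chemokine that recruits neutrophils, rose in tumors of irradiated heterozygote hosts. It and its neighbour Cxcl1, which acts on the same receptor, are shown by the 250 bases before the gene start (RefSeq, GRCm38.p6, plus strand, 5′ to 3′), since these chemokine genes varied together across tumors. Capitals mark the longest run of bases that both promoters share.

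Cxcl2, chr5:90903649-90903898: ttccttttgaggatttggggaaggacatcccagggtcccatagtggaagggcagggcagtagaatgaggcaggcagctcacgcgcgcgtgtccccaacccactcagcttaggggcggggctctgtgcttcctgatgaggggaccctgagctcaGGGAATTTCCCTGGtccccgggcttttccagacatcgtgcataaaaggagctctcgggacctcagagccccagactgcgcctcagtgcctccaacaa
Cxcl1, chr5:90890995-90891244: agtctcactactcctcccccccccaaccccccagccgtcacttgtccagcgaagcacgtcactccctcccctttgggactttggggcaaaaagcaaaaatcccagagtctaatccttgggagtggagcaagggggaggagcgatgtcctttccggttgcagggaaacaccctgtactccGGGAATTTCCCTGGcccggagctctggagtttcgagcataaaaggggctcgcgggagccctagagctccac

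The shared run, GGGAATTTCCCTGG, is 14 bases long and begins with a form of the motif bound by NF-kB, a transcription factor of inflammation. It started 97 bases before Cxcl2 and 71 before Cxcl1. Searched on both strands, with CCAGGGAAATTCCC as the reverse complement, it occurred in 2 of 32851 promoters of this length (0.00609%), these being the pair it was taken from. The match describes the letters, and no binding was measured.

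Cxcl2 values ran from 5.45 to 10.94 with a median of 7.23 in heterozygote hosts, and from 4.10 to 9.07 with a median of 5.99 in wild-type hosts. In 16 of 18 tumors of heterozygote hosts it lay above the wild-type median, and the groups overlapped. The log2 difference was 1.47 (SE 0.36, 2.77-fold, limma adjusted p = 0.0147), and it ran from 1.26 to 1.61 when each array was left out in turn. Cxcl1 ran from 8.27 to 12.27 (median 10.41) in heterozygote hosts, against 6.37 to 10.84 (median 9.29) in wild-type hosts. Its difference of 0.98 at the brightest probe set did not pass (SE 0.31, limma adjusted p = 0.0986). The other Cxcl1 probe sets that passed the filter gave 1.11 (SE 0.35) and 0.62 (SE 0.15). The result for Cxcl1 therefore holds for the probe set used. Across tumors r between these chemokines was 0.883 (n = 18) in heterozygote hosts and 0.724 (n = 23) in wild-type hosts.

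All 9 tested members of the neutrophil list had positive differences, with a median of 0.98 beside 0.02 over all genes, where 54.1% were positive. With 1 probe set per gene Cxcl2 alone passed, and 7 of the 9 had an unadjusted p under 0.05 (11.9% of all genes). S100a8, a subunit of calprotectin, ran from 8.09 to 13.58 (median 10.59) in heterozygote hosts and from 6.17 to 12.90 (median 9.48) in wild-type hosts. Its difference of 1.29 did not pass, nor did the 1.42 of its partner S100a9 (limma adjusted p = 0.208 and 0.222). Csf3, the growth factor of granulocytes, stood at 0.99, its receptor Csf3r at 0.48 and the granule protein Ngp at 0.87 (limma adjusted p = 0.258, 0.404 and 0.237).

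The summed level of the neutrophil list, as the mean over its members, ran from 6.94 to 11.45 (median 8.74) in heterozygote hosts and from 5.76 to 9.48 (median 7.72) in wild-type hosts. Its median difference was 0.67 over all 13 members on the array without a filter, 0.74 on the values as deposited and 1.06 with arrays centred on their median, and 0.85 to 1.10 without each array in turn. The other 4 members on the array, Mpo, Elane, Camp and Cxcr2, did not pass the filter on dim signal. In sham-irradiated hosts the median difference was 0.10, with 0.56 for Cxcl2, -0.14 for Cxcl1 and -0.24 for S100a9. The difference between irradiated and sham-irradiated hosts had unadjusted p = 0.204 for Cxcl2 and 0.0682 for Cxcl1.

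Some calls outside the lists are named here after their values were seen, and no list or test stands behind the choice. Il1r2, the decoy receptor of interleukin 1, averaged 1.27 higher (limma adjusted p = 0.0474), Dcstamp, a fusion receptor of osteoclasts and dendritic cells, 1.25 (limma adjusted p = 0.000214) and Trem3, an activating receptor of myeloid cells, 0.89 (limma adjusted p = 0.000192). Cd180, a Toll-like receptor relative on B cells and macrophages, had a difference of -0.70 (limma adjusted p = 3.35e-05). The macrophage list had 0 of 22 members called, 11 positive and a median of -0.01. Mpeg1, a pore-forming protein of macrophages, ran from 9.62 to 11.30 (median 10.90) in heterozygote hosts and from 10.08 to 12.14 (median 11.31) in wild-type hosts. None of the 18 tumors of heterozygote hosts lay above the wild-type median, yet its difference of -0.43 did not pass (SE 0.15, limma adjusted p = 0.153). Cd163, of the same list, went the other way, and its difference of 0.68 did not pass either (SE 0.31, limma adjusted p = 0.348).

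No gene of TGF-beta signaling passed in either direction, beside 1.88% of all genes tested. At that share lists of this size hold few calls or none, so their absence is not a result about the pathway. Among 16 ligands and receptors tested 8 were positive, with a median of 0.08. Tgfb2 differed by -0.25 and Tgfb3 by 0.23, the signaling receptors Tgfbr1 by -0.05 and Tgfbr2 by 0.17, and the co-receptor Tgfbr3 by 0.26. The highest values were those of Bmp2 and Inhba, ligands of the wider family, at 0.88 and 0.66 (limma adjusted p = 0.521 and 0.426). Of 11 genes of latent storage and activation 4 were positive and the median was -0.05. Ltbp4, a latent TGF-beta binding protein, had a difference of -0.35 and its relative Ltbp2 of 0.38 (limma adjusted p = 0.465 and 0.67). Without WT_irradiated replicate 11 that of Ltbp4 was -0.22, and without WT_irradiated replicate 16 that of Ltbp2 was 0.21.

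SMAD mediators and response genes had 15 of 19 positive differences, 0 calls and a median of 0.13, which was -0.04 on the values as deposited. Smad3, the receptor-activated mediator, ran from 9.18 to 11.10 (median 10.03) in heterozygote hosts, against 8.93 to 11.25 (median 9.65) in wild-type hosts. Its difference of 0.40 did not pass (SE 0.15, limma adjusted p = 0.216). Cdkn2b, a cell cycle inhibitor induced by TGF-beta, stood at 0.55, the inhibitor Smad7 at 0.19 and the response gene Ccn2 at 0.16 (limma adjusted p = 0.251, 0.602 and 0.799). Fn1, the matrix protein fibronectin, ran from 11.54 to 14.14 (median 13.18) in heterozygote hosts and from 10.23 to 14.12 (median 12.13) in wild-type hosts. Its difference of 0.82 (SE 0.28, limma adjusted p = 0.135) did not pass, but did under 5 alternatives, including array weights (limma adjusted p = 0.0286). The other 20 matrix and fibroblast genes also had 0 calls, and the list's median of 0.06 was -0.07 without Het_irradiated replicate 7.

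**Figure D4:**
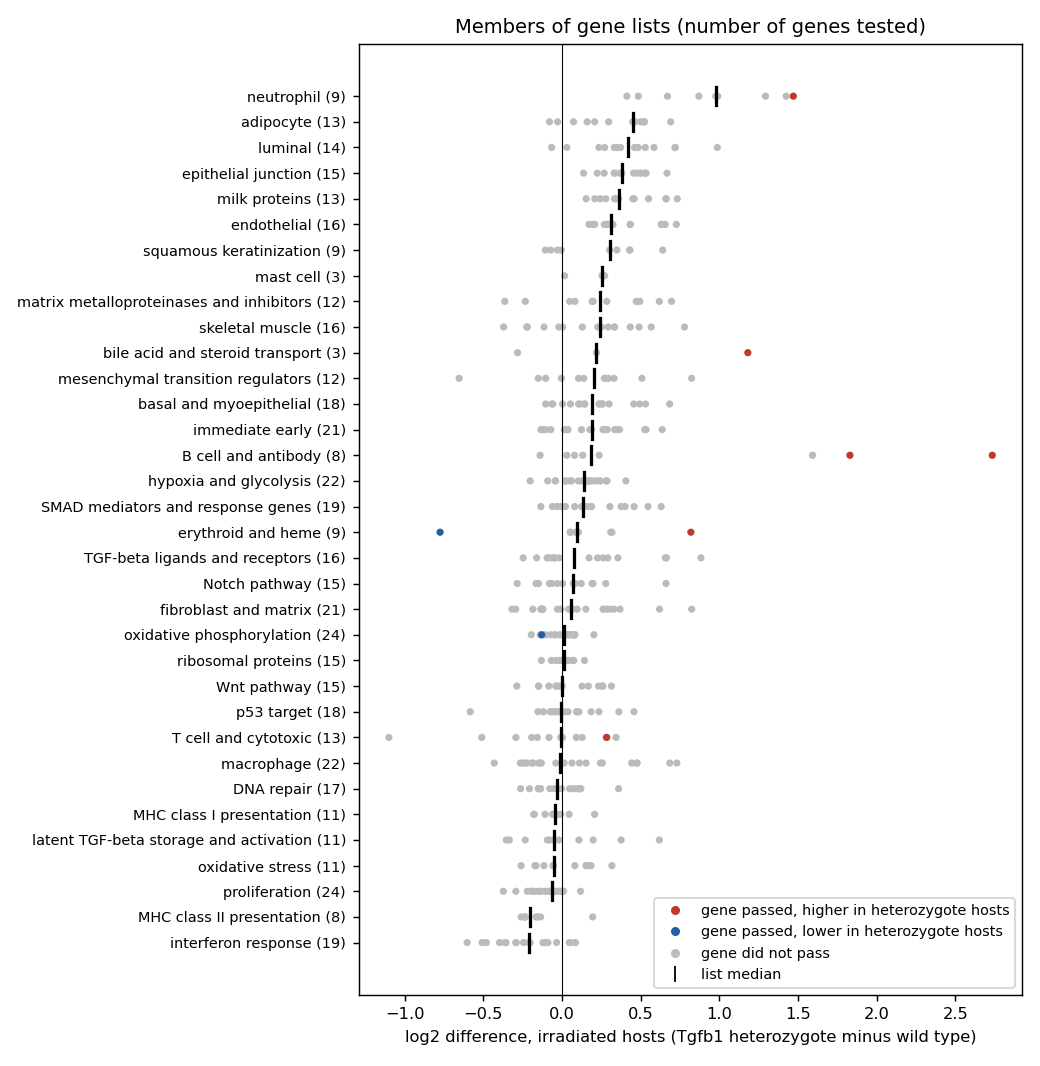
Log2 difference, heterozygote minus wild-type irradiated hosts (horizontal axis), of each tested member of 34 gene lists (rows, number of genes tested in parentheses, ordered by median); red and blue points passed, grey points did not, and black bars are list medians. The neutrophil list has the highest median, 0.98, and the interferon response list the lowest, -0.21.

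Across the 34 lists 8 of 480 genes tested were called, 1.67%, near the 1.88% of all genes. They were Slc51b, Igkv8-30, Igha, Cxcl2, Alas2 and Cd4, which rose, and Hamp2 and Uqcrb, which fell. With the filter on the mean, which Slc51b and Hamp2 do not pass, 6 were called. Across the quantile normalized, deposited, centred and ranked values 9 of the 34 list medians kept 1 sign, 7 of them positive (neutrophil, adipocyte, luminal, epithelial junction, milk protein, endothelial and squamous) and 2 negative (interferon response and MHC class II). The squamous median was 0.30, with 5 of 9 members positive, but -0.02 without a filter and 0.04 without Het_irradiated replicate 32. Lists of epithelial genes had positive medians without a call. All 15 epithelial junction genes were positive (median 0.38), as were all 13 milk protein genes (0.36) and 13 of 14 luminal genes (0.42). Over all genes tested 54.1% were positive, and members of a list may vary together. Median list levels were close, at 10.48 in heterozygote and 10.43 in wild-type hosts for junction genes, and 10.01 and 9.99 for luminal genes. The lowest levels differed more, at 7.87 and 5.61 for junction genes and 8.87 and 6.90 for luminal genes. With the 18S control as covariate the junction median was 0.74 and the luminal one 0.71. With the epithelial score, the mean of the junction genes themselves, they were 0.0082 and 0.084, and the milk protein median was 0.13. That score takes out the shared difference of the junction genes by construction, so their value is not a separate result. Without WT_irradiated replicate 59, whose epithelial level was low, the junction median was 0.25 and the luminal one 0.25, and without Het_irradiated replicate 7 the milk protein median was 0.22. The progesterone receptor Pgr differed by 0.99, but by 0.59 without Het_irradiated replicate 32, and the estrogen receptor Esr1 by 0.35, but by 0.16 without that replicate (limma adjusted p = 0.404 and 0.774).

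All 16 endothelial genes were positive, beside 54.1% of all genes, and 0 passed. Their median was 0.31, and 0.07 on the values as deposited. Vwf, the von Willebrand factor, ran from 4.68 to 7.97 (median 5.50) in heterozygote hosts and from 4.23 to 7.17 (median 5.07) in wild-type hosts, a difference of 0.73 (limma adjusted p = 0.153). Cdh5, the cadherin of vessel walls, stood at 0.66 (limma adjusted p = 0.295). Adipocyte genes had 11 of 13 positive and a median of 0.45, which was 0.22 without Het_irradiated replicate 7 and -0.61 in sham-irradiated hosts. Among immediate early genes 17 of 21 were positive (median 0.19, or -0.00498 on the values as deposited). Dusp1, a phosphatase induced by stress, stood at 0.64 and Klf4 at 0.53 (limma adjusted p = 0.174 and 0.318).

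Interferon response genes had mostly negative differences, with 3 of 19 positive, 0 calls and a median of -0.21. That median was -0.45 on the values as deposited, -0.12 with arrays centred and -0.05 after adjustment for the 18S control. Ifit3 ran from 6.65 to 10.62 (median 9.13) in heterozygote hosts and from 6.94 to 11.55 (median 9.49) in wild-type hosts, a difference of -0.60 (limma adjusted p = 0.58). Of 8 MHC class II genes 1 was positive (median -0.20). Proliferation genes had 3 of 24 positive with a median of -0.07, but 0.03 with arrays centred on their median. The 18 p53 target genes had 9 positive (median -0.01) and the 17 DNA repair genes 7 (median -0.03), with 0 called in either.

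T cell and cytotoxic genes had differences of both signs. Cd4, the co-receptor of helper T cells, ran from 6.10 to 7.01 (median 6.47) in heterozygote hosts and from 5.82 to 6.77 (median 6.16) in wild-type hosts. It rose by 0.28 (SE 0.08, limma adjusted p = 0.0345), but the call ended with either RNA quality covariate and when any 1 of 8 arrays was left out, and on the values as deposited the difference was -0.01. Gzmb, the granule protease of cytotoxic cells, ran from 4.09 to 8.42 (median 5.01) in heterozygote hosts, against 4.45 to 10.20 (median 5.83) in wild-type hosts. It lay below the wild-type median in 17 of 18 tumors of heterozygote hosts, but its difference of -1.10 did not pass (SE 0.38, limma adjusted p = 0.147). The list as a whole had 1 of 13 called, 6 positive and a median of -0.01.

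Alas2, the erythroid enzyme that starts heme synthesis, rose in irradiated heterozygote hosts. It ran from 4.80 to 8.59 (median 6.25) in them and from 4.97 to 6.78 (median 5.46) in irradiated wild-type hosts, with a difference of 0.82 (SE 0.21, limma adjusted p = 0.025). In sham-irradiated hosts the difference was -1.18, and -0.51 without WT_sham replicate 46, which stood apart at 12.61. The call ended when all 56 arrays were fitted together, with the 18S covariate and on the values as deposited (limma adjusted p = 0.28, 0.0566 and 0.0594). Uqcrb, a subunit of respiratory complex III and among the brightest genes called, ran from 13.63 to 13.87 (median 13.71) in heterozygote hosts and from 13.73 to 14 (median 13.87) in wild-type hosts. It differed by -0.13 (SE 0.03, limma adjusted p = 0.0334), which turned to 0.15 with arrays centred on their median. The call of Uqcrb also ended with ranks, with the 18S covariate, with low-18S arrays left out (limma adjusted p = 0.896, 0.0636 and 0.0969) and when any 1 of 6 arrays was left out, and its other probe set gave 0.04.

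Bright genes were seldom called, and those named here were chosen after their values were seen. Dr1, a repressor of transcription initiation, had a difference of -0.37 (limma adjusted p = 0.000156), while its difference in sham-irradiated hosts was 0.00. Marchf5, a mitochondrial ubiquitin ligase, had -0.36 in irradiated and 0.02 in sham-irradiated hosts. Rpe, an enzyme of the pentose phosphate pathway, had -0.53 and -0.29, and Pnrc2, a cofactor of RNA decay, -0.47 and -0.42. Chromatin genes Suz12, of Polycomb repressive complex 2, and Arid1b, of the BAF complex, rose by 0.30 and 0.38 (limma adjusted p = 0.0149 and 0.0115). The long RNA gene AY036118 rose by 0.57 (limma adjusted p = 0.000441).

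Probe sets of 1 gene did not always agree. Of the 229 called genes 45 had another probe set that passed the filter. In 27 of these (60%) all other probe sets had the same sign, beside 54.7% of the genes that were not called. In 6 (13.3%) another probe set was called too, beside 3.99%.

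Because the hosts differ at Tgfb1 on chromosome 7, called genes were counted by distance from it. Within 25 Mb 12 of 404 genes tested were called (2.97%, beside 1.88% over all genes), 4 higher and 8 lower. Within 10 Mb it was 5 of 230 (2.17%) and within 5 Mb 2 of 131 (1.53%). The rest of chromosome 7 had 12 of 515 (2.33%), and single chromosomes ranged from 0.739% on chromosome 14 to 3.00% on chromosome 6. Tumor RNA is a mix of fragment and host cells, and these arrays do not tell their alleles apart.

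Spaca4 and Hamp2, described above, lie 20.04 and 5.24 Mb from Tgfb1 (RefSeq, GRCm38.p6). Among the other genes in this window Zfp583, a zinc finger protein, differed by -0.75 and Zfp128 by -0.39, while Iglon5, a neural adhesion protein, differed by 0.54 (limma adjusted p = 0.000747, 0.000852 and 0.00466). Ppp1r14a, an inhibitor of myosin phosphatase, differed by 0.64 and Cox7a1, a muscle form of a cytochrome oxidase subunit, by 0.71 (limma adjusted p = 0.00426 and 0.0424). The call of Cox7a1 ended under 7 alternatives and when any 1 of 24 arrays was left out, that of Ppp1r14a on the values as deposited and with all 56 arrays, and that of Iglon5 as deposited. The remaining calls there were 4933402C06Rik, Lgi4, Ccdc114, Psg23 and Klk1b21, from -0.44 to 0.29, of which Psg23 lost its call under 6 alternatives and when any 1 of 25 arrays was left out.

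**Figure D5:**
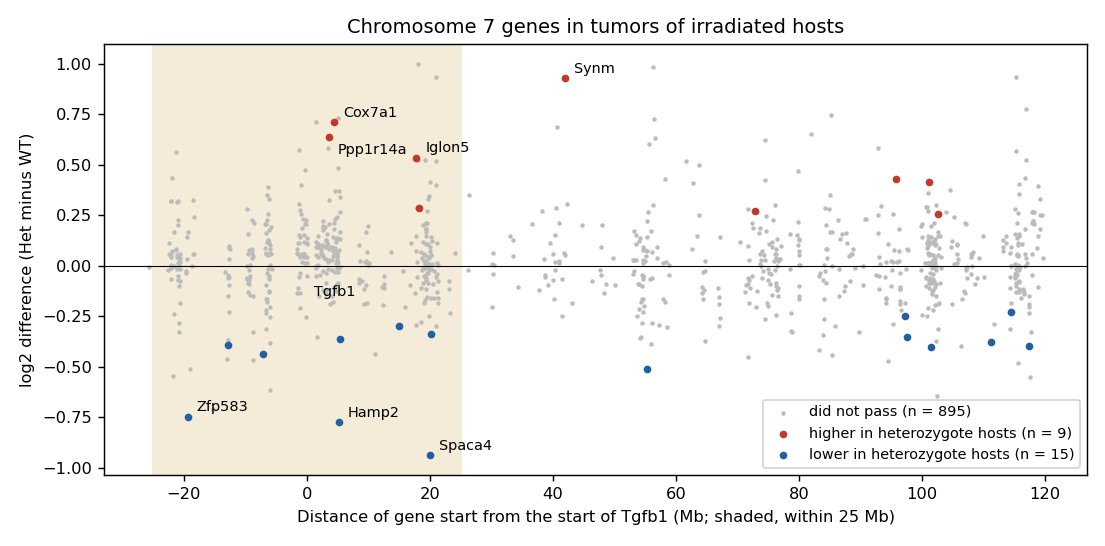
Log2 difference, heterozygote minus wild-type irradiated hosts (vertical axis), of 919 genes of chromosome 7 by distance of their start from that of Tgfb1 in Mb (horizontal axis; shading marks 25 Mb to either side); red and blue points passed, grey points did not. The 24 called genes are spread along the chromosome, 12 inside the shading and 12 outside.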

How the data were processed

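Total RNA of each tumor, 100 ng, was labelled for an Affymetrix 3' array, per the labels' protocols. Values were deposited as log2 signals of probe sets, which the authors had summarized with RMA, per the submitters' processing notes; no version is stated. The platform annotation gave 34958 of 45101 probe sets a single gene symbol, 932 several and 9211 none here, and only the first were used. For 12167 of the 12207 tested genes the symbol was matched to the RefSeq annotation of GRCm38.p6.

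The 41 arrays were quantile normalized together. The probe set with the highest mean over all 56 arrays stood for its gene, kept if it exceeded the overall median of the values on 6 or more arrays. limma 3.58.1 in R 4.3.3 (lmFit and eBayes) was fitted to 2 group means, with a Benjamini-Hochberg adjusted p threshold of 0.05 over all genes. Sham-irradiated hosts and the difference of genotype effects came from a fit of 4 groups to all 56 arrays. Control probe sets were compared with 100000 permutations. Methods were tested on simulated data. Each column was distinct, with array correlations up to 0.99. The number of arrays limits the precision.

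Named genes were, per direction, the 12 called genes with the lowest p, the called members of each list (up to 3) or else the 2 with the lowest p, all called genes within 25 Mb of Tgfb1, and Tgfb1 and Esr1; other list members are named for their role. The members and lists were chosen with earlier results of these data known. The gene that the transplants lack is not reported. Alternatives were other scalings, filters, probe sets, eBayes settings and array weights, covariates, and left-out arrays; list counts with centred arrays and ranks, and the filter on the mean, were added after seeing the data. Figures used matplotlib 3.10.9 (Python 3.11.15).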

Additional observations from a re-analysis of the deposited data

Results flagged for a closer look

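In 14 groups of sham-irradiated tumors, each a gene in 1 genotype, the extreme tumor was set against the others, where chance picks out about 1 in 20. Alas2 was at 12.61 in WT_sham replicate 46, with the next tumor at 8.40 (n = 9). Tgfb1 was at 11.22 in the same tumor, with the next at 9.38. The sham difference, heterozygote minus wild type, was -1.18 for Alas2 and -0.51 without this tumor. For Tgfb1 it was -0.81, and -0.54 without it. The part of this tumor in the contrast between irradiated and sham-irradiated hosts was not tested further.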

How the results depend on the processing

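The count of 229 called genes was within 1.5 times of itself with ranks, all 56 arrays together, the 18S or 3' minus 5' covariate, a trended and robust eBayes and without the arrays of low 18S. It moved to 125 with the filter on the mean, 139 with the stricter filter, 588 with all probe sets, 482 with array weights, 718 (574 higher, 144 lower) with arrays centred on their median, 365 with the epithelial score as covariate, 2335 without a filter and 4108 as deposited, and the cause was not tested beyond the number of features tested. Leaving out each array gave 189 (without Het_irradiated replicate 4) to 289 (without WT_irradiated replicate 57). The 8 calls in the gene lists became 5 with the 18S covariate, 14 with the epithelial score, 28 without a filter, 38 with centred arrays and 62 as deposited, and 6 to 12 with each array left out. The 44 calls in sham-irradiated hosts became 92 with the 18S covariate, 840 without a filter and 995 as deposited, and 32 to 59 with each array left out. The 12 calls near Tgfb1 became 105 without a filter and 162 as deposited, and 10 to 16 with each array left out. Over all genes the share called also rose, from 1.88% to 12.8% without a filter and 33.5% as deposited. The shares in the lists and near Tgfb1 under these settings were not computed. The contrast of genotype effects stayed at 0 calls under the alternatives run. Igkv8-30 and Cxcl2 kept their calls in all 14 settings (limma adjusted p up to 0.000274 and 0.0472).

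Signs turned as deposited for Cd4 (-0.0089), Hdc (-0.065), Klk1b21 (-0.034) and Myo7b (-0.013). The Hdc probe set used differed by 0.25 in the main fit, while another differed by 1.22 and was called with all probe sets. With centred arrays signs turned for H2-K1 (0.16), Rpl7 (0.20), Uqcrb (0.15) and Tgfb1 (0.044). Tgfb1 ran from -0.12 without Het_irradiated replicate 4 to 0.011 without WT_irradiated replicate 57. Kit was at -0.065 with array weights and -0.044 with the epithelial score. No paired analysis was possible because replicate numbers do not recur across the groups. Normalization set and host genotype cannot be told apart in these comparisons, and signal over background was not analysed here.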
